A study of Drosophila melanogaster with 3 samples.

Results

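Respiratory complex I (NADH:ubiquinone oxidoreductase) takes electrons from NADH, passes them to ubiquinone and pumps protons across the inner mitochondrial membrane. The genes examined are the nuclear protein-coding genes of Drosophila melanogaster whose annotated name begins with ND-, of which there were 40 among 13945 protein-coding genes on the 6 main chromosome arms. They comprised 34 subunit genes and 6 paralogs, named after a subunit gene with an added L (ND-20L, ND-24L, ND-49L, ND-51L1, ND-51L2 and ND-B14.5AL). ND-MNLL also ends in that letter, but no gene named ND-MNL exists, and it was kept among the subunits.

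The data were ChIP-seq peak lists for M1BP, the zinc-finger protein encoded by CG9797 that binds the core promoter element Motif 1. All libraries came from whole embryos, with males and females pooled and collected at 0 to 24 h, of a transgenic strain (CG9797-GFP) that carries M1BP with GFP at its C-terminus. The 3 biological replicates form a single group, and there is no second genotype, stage or treatment to set them against. A free-text label calls these libraries input, while the assay title, the antibody field (which names CG9797 and is silent on a GFP antibody) and a control listed elsewhere describe immunoprecipitates; all values below treat them as immunoprecipitates.

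A subunit gene was called bound when a summit of the thresholded peak list (4598 peaks that passed the authors' filter for reproducibility between replicates) lay within 250 bp of one of its start sites. Each peak carries a signal value, a score assigned by the authors' peak caller on a scale that is not stated; in the thresholded list it ran from 261 to 5321 with a median of 538. Replicates were compared by rank (rank 1 is the strongest of the 30000 entries in a replicate's own list), and the strongest 4598 entries of each replicate were taken as that replicate's peaks. Within 100 bp of the thresholded summits, replicates 1, 2 and 3 had an entry for 96.8%, 71.5% and 86.6% of them. Read counts are not part of the peak lists, and the depth behind each replicate is unknown. Gene activity was not measured, and whole embryos mix tissues and ages.

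Complex I has a matrix arm, where flavin and iron-sulfur clusters carry electrons from NADH to the quinone site, and a membrane arm that holds the proton channels. A set of conserved core subunits does the chemistry, those of the membrane arm being encoded in mitochondrial DNA, and accessory subunits surround them and stabilise the assembly. Every mitochondrion needs the enzyme, so its nuclear genes are used in most tissues, and many duplicated mitochondrial genes of flies are known for expression in the testis.

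The sequence M1BP is known to bind was found at a subset of these promoters. The search used the 9-letter core of Motif 1, GGTCACACT, on both strands. The following 7 matches are shown because they lie within 100 bp of the summit at a bound subunit gene. Each is printed 5′ to 3′ on the strand of its gene, from the NCBI RefSeq Release 6 genome (dm6), with the core in capitals and 10 bases on each side.
ND-PDSW (chr2L:3466069-3466097, plus strand): gagcgaagccAGTGTGACCgcagtgtgcc
ND-ACP (chr3L:1329972-1330000, plus strand): ttgcgcatacGGTCACACTgctaccttgc
ND-18 (chrX:19492408-19492436, plus strand): ccgctcgcctGGTCACACTggcactggcg
ND-B17 (chr2L:15751075-15751103, minus strand): ttaagagtgcGGTCACACTggcggcaaca
ND-SGDH (chr3L:12138466-12138494, minus strand): gtctgcaaaaAGTGTGACCgtttgccgtg
ND-39 (chr3L:20495364-20495392, plus strand): gctacgccacGGTCACACTgtcgtggggc
ND-13A (chr2L:5100262-5100290, minus strand): ttaaataaccAGTGTGACCgctgatcggt
In 4 of them the core reads in the direction of the gene, and in ND-PDSW, ND-SGDH and ND-13A it reads on the opposite strand. The cores of ND-SGDH and ND-39 lie nearest a downstream start site of those genes, and the others lie nearest the most upstream one. The ND-PDSW core begins 78 bp upstream of that start, beyond the start of the divergent neighbour msl-2, which lies 45 bp upstream. It thus lies inside msl-2 and reads on the strand of msl-2.

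Longer stretches show how varied these promoters are. The following are the 120 bases before the most upstream start site, 5′ to 3′ on the gene's strand, from the same genome. They cover a bound gene with the core at its start (ND-B17), a bound gene with a core that spans the start and a 1-mismatch match further upstream (ND-18), a bound gene with a 1-mismatch match only (ND-B17.2), a bound gene with neither (ND-20) and its unbound paralog (ND-20L), and an unbound subunit gene that holds TATCGATA, the DNA replication-related element or DRE (ND-B14.5A). Capitals mark the core, a match to it with 1 mismatch, or the DRE, and in ND-18 the closing capitals are the part of the core that lies before the start.
ND-B17 (chr2L:15751079-15751198, minus strand): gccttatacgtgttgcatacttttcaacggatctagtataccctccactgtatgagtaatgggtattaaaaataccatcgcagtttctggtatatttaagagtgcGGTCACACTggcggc
ND-18 (chrX:19492301-19492420, plus strand): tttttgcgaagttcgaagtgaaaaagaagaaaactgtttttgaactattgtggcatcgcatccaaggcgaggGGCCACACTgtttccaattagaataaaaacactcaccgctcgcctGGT
ND-B17.2 (chr2L:2580173-2580292, minus strand): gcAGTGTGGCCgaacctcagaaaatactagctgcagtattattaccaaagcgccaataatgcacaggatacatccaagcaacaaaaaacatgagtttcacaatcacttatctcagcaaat
ND-20 (chrX:15986809-15986928, minus strand): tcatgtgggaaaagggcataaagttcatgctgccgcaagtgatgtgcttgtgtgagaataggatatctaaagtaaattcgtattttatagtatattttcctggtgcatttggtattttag
ND-20L (chr3R:29515597-29515716, plus strand): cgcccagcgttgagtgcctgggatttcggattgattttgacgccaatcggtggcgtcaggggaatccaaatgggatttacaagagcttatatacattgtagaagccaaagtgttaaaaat
ND-B14.5A (chrX:2172406-2172525, plus strand): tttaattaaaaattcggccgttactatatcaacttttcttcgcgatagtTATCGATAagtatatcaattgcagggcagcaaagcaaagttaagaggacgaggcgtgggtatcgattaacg

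Of the 34 subunit genes 22 were bound (64.7%), while 31.1% of all protein-coding genes were. The strongest peaks of replicates 1, 2 and 3 marked 24, 20 and 20 subunit genes, a mean share of 62.7% ± 6.79 (SD, n = 3). All protein-coding genes stood at 31.3% in replicate 1, 28.3% in replicate 2 and 29.3% in replicate 3, so in each replicate the subunit share lay above the background by more than the spread between replicates. In the thresholded list and in all 3 replicates alike, 17 of the 34 subunit genes were bound, each list being read within 250 bp of a start. The same held for 2905 of all 13945 protein-coding genes. A stricter rule, which kept a thresholded peak only where both remaining replicates had a strong summit within 100 bp of it, moved the count: it was 10 without replicate 1, 18 without replicate 2 and 13 without replicate 3, beside 17.4%, 24.2% and 19.8% of all genes. The relaxed pooled list, which holds background as well as peaks, had an entry within 250 bp of a start site at 32 subunit genes (94.1%), against 50% of all genes. The signal values of the bound subunit genes ran from 267 to 1919 with a median of 730, close to the 690 of all bound genes. Of the 22, 12 exceeded the median of the thresholded peaks. Over all genes, 19.5% were marked by a peak above that median, out of the 31.1% bound. The share of genes bound thus lay further from the background than the signal values did. No test was run across genes, since the members share libraries and are not replicates.

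**Figure D1:**
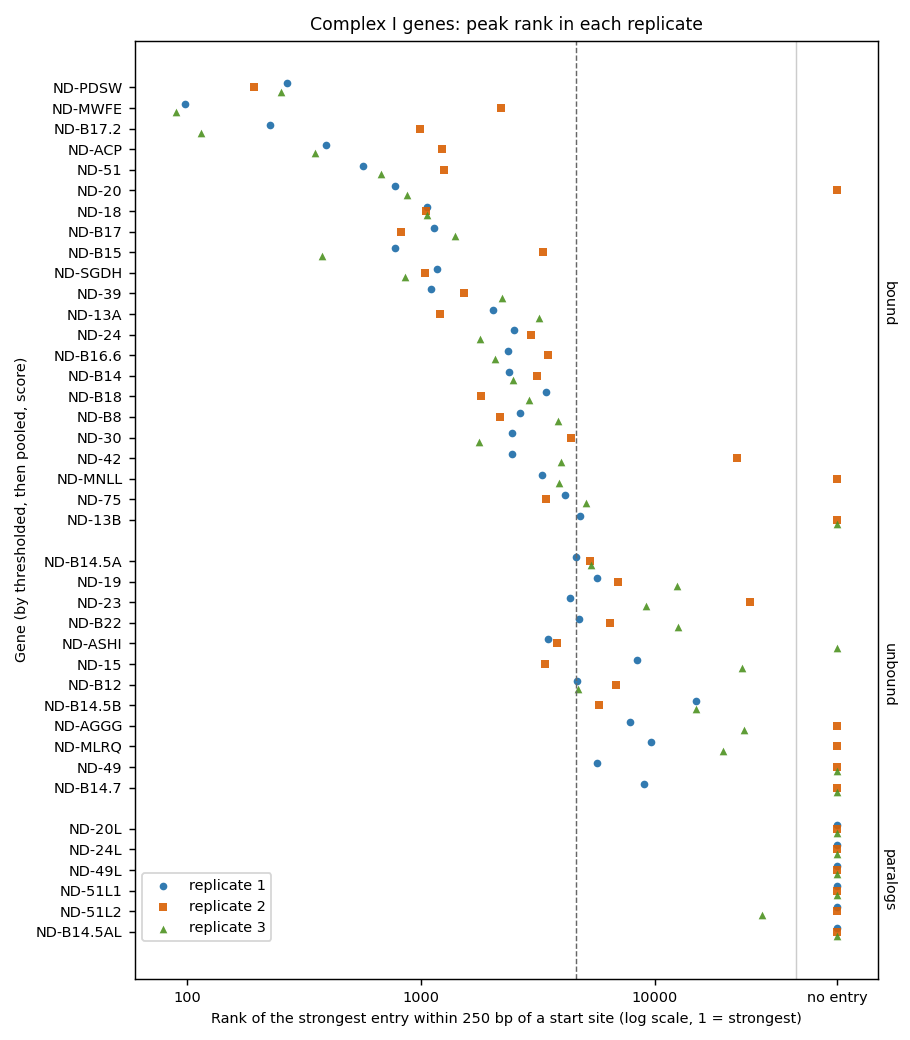
Rank of the strongest entry within 250 bp of a start site (horizontal, log scale, 1 is the strongest) for the 22 bound subunit genes, the 12 unbound ones and the 6 paralogs, with a circle, square and triangle for replicates 1, 2 and 3. The dashed line marks rank 4598; the ranks of the bound genes lie mostly left of it in all replicates, and 5 of the 6 paralogs have no entry in any.

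The core subunits carry the redox centres. ND-51 binds NADH and the flavin, ND-24 and ND-75 hold iron-sulfur clusters of the matrix arm, ND-20 holds the last iron-sulfur cluster beside the quinone, ND-23 holds clusters next to it, and ND-49 and ND-30 belong to the part that joins the arms. Of these 7 genes, 5 were bound (71.4%), with a median signal value of 536. The strongest was ND-51, with a signal value of 1204 (2L, peak 6062635 to 6063097), which ranked 566, 1257 and 677 in replicates 1, 2 and 3. ND-20 followed with 1133 (X, peak 15986706 to 15987033) and ranked 774 in replicate 1 and 873 in replicate 3. Replicate 2 had no entry at ND-20, its nearest lying 2042 bp away, so the call rests on the other replicates.

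The other bound core genes were weaker. ND-24 had a signal value of 536 and ranked 2504, 2954 and 1793 in replicates 1, 2 and 3. ND-30 had 437 and ranked 2457, 4385 and 1767. ND-75, which encodes the large iron-sulfur subunit and was the weakest bound gene but 1 of the complex, had 341 (X, peak 8251467 to 8251982) and ranked 4137, 3412 and 5066. It thus fell outside the strongest peaks of replicate 3.

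The remaining core genes, ND-23 and ND-49, were unbound. ND-23 (3R) ranked 4335 in replicate 1, within that replicate's strongest peaks, but 25456 in replicate 2 and 9133 in replicate 3. ND-49 ranked 5642 in replicate 1 and had no entry in replicates 2 and 3. It is the only member on chromosome 4, where the thresholded list holds 7 peaks in all, and the GC content around its start was 22.9%, against a median of 33.8% for the subunit genes and 41.3% for all genes. Whether base composition had a part in the missing entries was not tested.

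Among the classes with more than 1 gene, the accessory subunits of the matrix arm had the largest bound share, 7 of 8 (87.5%; 79.2% ± 7.22 over replicates, SD, n = 3), with a median signal value of 669. ND-B17.2, whose human counterpart also has an assembly factor as a relative, led them with a signal value of 1686 (2L, peak 2579949 to 2580416) and ranked 225, 989 and 115 in replicates 1, 2 and 3. ND-18 had 1066 (X, peak 19492232 to 19492551) and ranked 1061, 1051 and 1062. ND-18 and ND-B17.2 differed in how far their ranks moved, though both were among the strongest peaks of every replicate. The ranks of ND-18 barely differed between replicates, whereas the highest rank number of ND-B17.2 was 8.60 times its lowest.

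ND-39, an accessory subunit that holds NADPH, had a signal value of 792 and ranked 1105, 1525 and 2214 in replicates 1, 2 and 3. Its summit lay 4 bp from the internal start site at 20495347 on 3L, far from the upstream one at 20492082. ND-13A, which binds zinc, had 669 and ranked 2031, 1203 and 3205. ND-B14, a small protein of the LYR family that docks the acyl carrier protein, had 490 and ranked 2386, 3133 and 2473, and ND-B8 had 454 and ranked 2649, 2184 and 3852. All 4 were among the strongest peaks of every replicate.

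ND-13B was the weakest bound gene of the complex. It had a signal value of 267 (3L, peak 10693698 to 10694213), rank 4517 of the 4598 thresholded peaks, and ranked 4773 in replicate 1. Replicate 2 had no entry nearer than 5458 bp, and the nearest in replicate 3 lay 343 bp away, outside the window. It was the only bound member among the strongest peaks of no replicate, and its summit lay 152 bp downstream of the start, the farthest downstream of any. Just outside the threshold stood ND-B14.5A, the only unbound accessory gene of the matrix arm, at rank 4932 of the pooled list (X); it ranked 4590, 5255 and 5303 in replicates 1, 2 and 3. ND-13B and ND-B14.5A thus lie on either side of the call with pooled signal values of 267 and 242.

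The acyl carrier protein ND-ACP, which serves mitochondrial fatty acid synthesis and is also built into complex I, was bound with a signal value of 1426 (3L, peak 1329622 to 1330081). It ranked 393, 1231 and 353 in replicates 1, 2 and 3, within the strongest peaks of each.

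Accessory subunits of the membrane arm were the least often bound of the larger classes, 9 of 17 (52.9%; 54.9% ± 3.40 over replicates, SD, n = 3), yet they included the strongest peaks and had a median signal value of 984. ND-PDSW had the highest of all members, 1919 (2L, peak 3465900 to 3466388), and ranked 267, 194 and 253 in replicates 1, 2 and 3. ND-MWFE had 1835 (2R, peak 13158173 to 13158821) and ranked 98, 2201 and 90. ND-PDSW stood alike in all replicates, while ND-MWFE was near the top of 2 of them and far lower in replicate 2, a 24.5-fold span of rank that no other member reached.

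ND-B17 had a signal value of 1060 (2L, peak 15750935 to 15751265) and ranked 1132, 820 and 1401 in replicates 1, 2 and 3. ND-B15 had 1020 (2R, peak 14756231 to 14756642) and ranked 773, 3315 and 376. ND-SGDH had 984 and ranked 1172, 1043 and 855. ND-B17 and ND-SGDH were alike in all replicates, whereas ND-B15 was lower in replicate 2, with an 8.82-fold span. The remaining bound genes of this class were weaker.

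ND-B16.6, the counterpart of human GRIM-19, had a signal value of 530 and ranked 2361, 3479 and 2071 in replicates 1, 2 and 3. ND-B18 had 466 and ranked 3427, 1798 and 2888. Both were within the strongest peaks of every replicate, which was not so for ND-42 and ND-MNLL, with signal values of 425 and 344. ND-42, a subunit related to nucleoside kinases, ranked 2450 in replicate 1, 22395 in replicate 2 and 3975 in replicate 3 (3R, peak 22027220 to 22027735), a span of 9.14-fold. At ND-MNLL, replicates 1 and 3 ranked 3281 and 3889, and the nearest summit of replicate 2 lay 264 bp away, just outside the window. Replicate 2 thus gave the lowest standing in each of the 4 members with the widest span, ND-MWFE, ND-42, ND-B15 and ND-B17.2, and lacked an entry at ND-20, ND-MNLL and ND-13B. The median GC content around the summit was 36.3% in the 4 bound members outside the strongest peaks of replicate 2 and 35.5% in the others. Depth is unknown for this library, and its part in the missing entries was not tested.

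Unbound genes of the membrane arm numbered 8. ND-B22, another LYR protein, ranked 4718, 6402 and 12576 in replicates 1, 2 and 3 (2L). ND-B12 ranked 4629, 6784 and 4666 (2R). ND-19 ranked 5670, 6926 and 12421 (2R). Each had an entry in all replicates, below the strongest 4598 in every one. ND-ASHI (X) ranked 3493 in replicate 1 and 3812 in replicate 2 and had no entry in replicate 3, so 2 replicates alone would have called it. ND-15 (2L) ranked 3372 in replicate 2 but 8354 in replicate 1 and 23431 in replicate 3, and its nearest thresholded summit lay 745 bp away, closer than at any other unbound subunit gene.

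The remaining unbound genes stood lower in the pooled list or had no entry there. ND-B14.5B (2L) ranked 15000, 5788 and 15029 in replicates 1, 2 and 3. ND-AGGG (3L) ranked 7813 in replicate 1 and 24040 in replicate 3, with no entry in replicate 2. ND-B14.7 (2R) ranked 8936 in replicate 1 and had no other entry. ND-MLRQ, kept apart because its human counterpart has been placed in complex IV, was also unbound and ranked 9653 in replicate 1 and 19555 in replicate 3. The unbound genes were thus spread below the threshold: 10 of the 12 had an entry in the pooled list, 7 of them at a rank number under 6500, and 4 were among the strongest peaks of at least 1 replicate. Of all 13945 protein-coding genes, 6970 had a pooled entry, and 4342 of these were bound. The counts by rank and by replicate were not taken over all unbound genes.

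**Figure D2:**
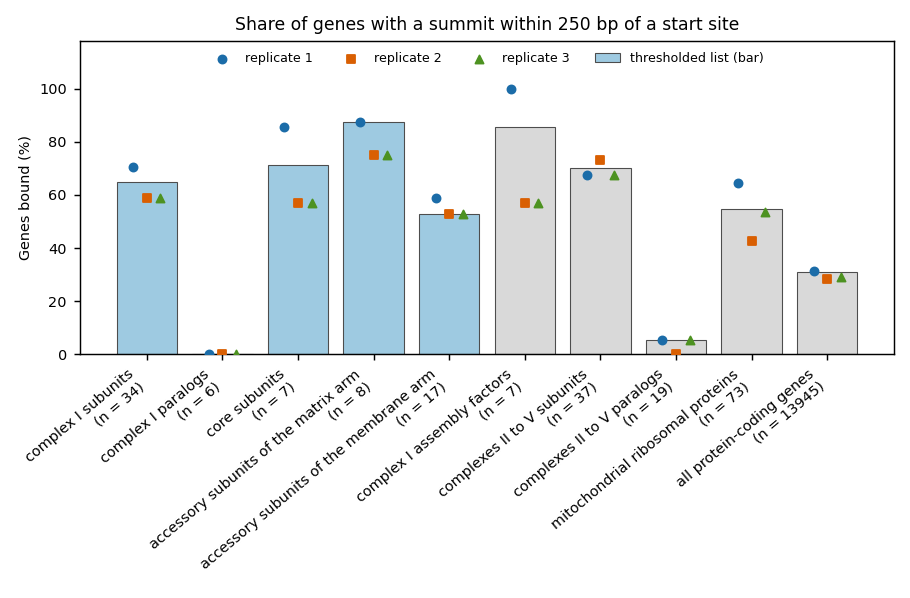
Share of genes with a summit within 250 bp of a start site (vertical, %), with bars for the thresholded list and points for the strongest 4598 entries of replicates 1, 2 and 3; complex I groups are blue and other groups grey. The complex I subunits stand at 64.7% and their paralogs at 0%, beside 31.1% of all protein-coding genes.

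No peak was called at any of the 6 paralogs, either in the thresholded list or among the strongest peaks of a replicate, and none had an entry in the pooled list within 250 bp of a start site. The sole entry at any of them was at ND-51L2 in replicate 3, at rank 28671 of 30000. The nearest thresholded summits lay 2472 bp from ND-51L1, 7171 bp from ND-51L2 and 12112 bp from ND-20L. They lay 18476 bp from ND-24L, 23025 bp from ND-49L and 110990 bp from ND-B14.5AL. The window of 250 bp was thus far from met by a thresholded summit at each. Relaxed entries of single replicates came nearer. Those of replicate 3 lay 258 bp from ND-49L and 347 bp from ND-51L1, and that of replicate 1 lay 450 bp from ND-B14.5AL. With 6 genes and a background of 31.1%, the count alone says little about paralogs as a class.

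The proteins of these paralogs differ from those of their parents to varying degrees, as computed from the annotated coding sequences. Identity over aligned residues was 77.3% for ND-20L with ND-20 and 76.4% for ND-51L1 with ND-51. It was 62.7% for ND-49L with ND-49 and 53.4% for ND-B14.5AL with ND-B14.5A. It was 50.9% for ND-24L with ND-24 and 50.3% for ND-51L2 with ND-51. Lengths differ most at ND-51L1, with 702 residues against 474 in ND-51, at ND-49L, with 523 against 468 in ND-49, and at ND-B14.5AL, with 145 against 103 in ND-B14.5A. The genes themselves are built differently. ND-20L and ND-B14.5AL have 0 introns, where their parents have 1. ND-24L, ND-51L1 and ND-51L2 also have 0, where their parents have 3, and ND-49L has 1, where ND-49 has 6. None of the paralogs has an opposite start site within 1000 bp upstream, whereas 20 of the 34 subunit genes have one. Of all 13945 protein-coding genes 4914 have one (35.2%), so its absence from 6 genes says little about the paralogs. The parents ND-20, ND-24 and ND-51 were bound, and the parents ND-49 and ND-B14.5A were not.

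At bound subunit genes the summits lay close to the start. Their median distance from the nearest start site was 47.5 bp, against 57.0 bp over all bound genes. Within 50 bp lay 12 of the 22 and within 100 bp lay 16, and 18 summits were upstream and 4 downstream. The downstream summits belonged to ND-39, ND-B14, ND-24 and ND-13B. Among the strongest genes, the summit was 22 bp upstream at ND-PDSW, 1 bp upstream at ND-B17, 24 bp at ND-B17.2, 41 bp at ND-20, 47 bp at ND-18 and 48 bp at ND-ACP, but 146 bp at ND-51 and 158 bp at ND-MWFE. The farthest was ND-42, at 231 bp upstream. Of the 10 bound genes with several start sites, 6 had the summit nearest the most upstream one, and ND-39, ND-SGDH, ND-13A and ND-B18 had it at a downstream one. A second thresholded summit lay in the window at 6 of the 22.

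**Figure D3:**
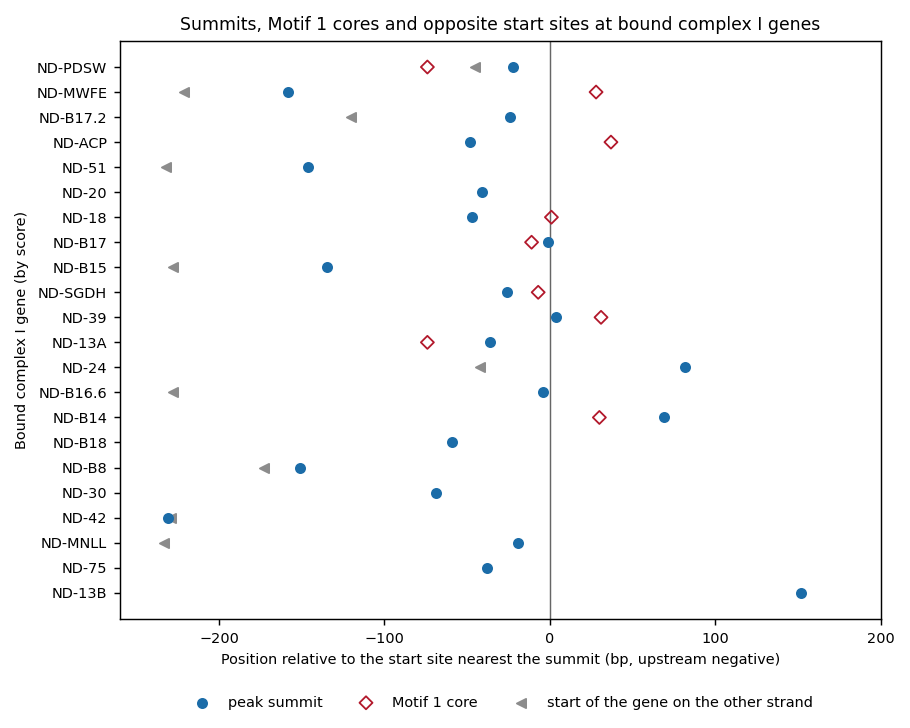
Position of the peak summit (filled circle), of exact Motif 1 cores (open diamond) and of the opposite-strand start site (triangle) at each of the 22 bound subunit genes, in bp from the start site nearest the summit with upstream negative. Summits cluster at a median distance of 47.5 bp, and those far upstream at ND-51, ND-MWFE, ND-B15, ND-B8 and ND-42 lie towards a start site on the other strand.

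The bound genes were spread over the arms. On 2L 6 of 9 subunit genes were bound, on 2R 3 of 6, on 3L 5 of 7, on 3R 1 of 2 and on X 7 of 9, and the single gene on chromosome 4 was not. The genes on X moved most between replicates among the arms with more than 2 members: the strongest peaks of replicate 1 marked all 9, and those of replicates 2 and 3 marked 6 each. The share of all protein-coding genes bound on each arm was not taken, so these counts cannot be read as particular to complex I. The subunit genes are short, with a median length of 1103 bp against 2166 bp for all protein-coding genes.

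Many of these genes are one side of a divergent pair, in which a neighbour starts upstream on the other strand. An opposite start within 1000 bp upstream was present at 58.8% of subunit genes, beside 35.2% of all protein-coding genes. It was present at 56.8% of the subunit genes of complexes II to V and 79.5% of mitochondrial ribosomal protein genes. Of the 20 subunit genes with an opposite start within 1000 bp, 16 were bound (80.0%), beside 56.0% of all such protein-coding genes. Of the 14 without one, 6 were bound (42.9%), beside 17.6% of all such genes. Subunit genes thus had the higher share in both classes, and the 2 classes differed among subunits in the same direction as among all genes. The 16 bound genes with a divergent neighbour had a median signal value of 603, and the 6 without one had 926.

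**Figure D4:**
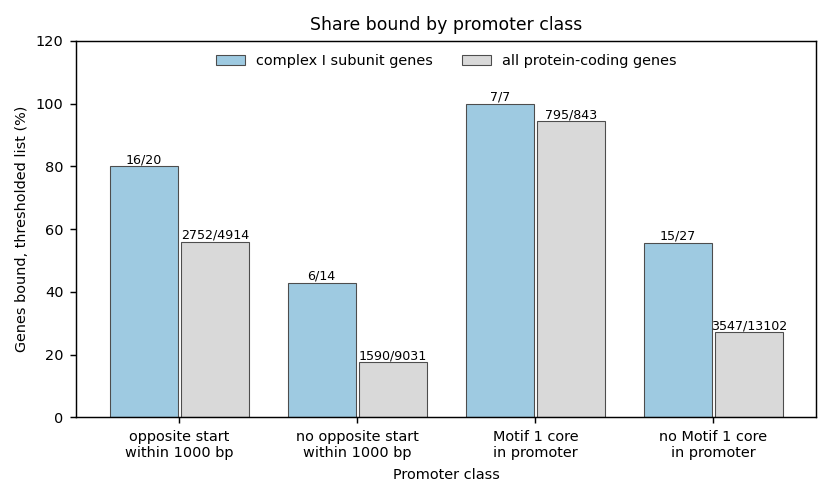
Share of genes bound in the thresholded list (vertical, %) among complex I subunit genes (blue) and all protein-coding genes (grey), by whether an opposite start lies within 1000 bp upstream and whether the promoter of the most upstream start holds a Motif 1 core, with counts above the bars. The subunit bar stands at 80.0% against 56.0% with an opposite start, 42.9% against 17.6% without one and 55.6% against 27.1% without a core. With a core, its 100% is near the 94.3% of all genes.

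In 10 of the 22 bound genes (45.5%) the strongest peak also lay within 250 bp of a start of another gene, as in 47.4% of all bound genes, so these peaks cannot be assigned to the subunit gene alone. At ND-PDSW the summit lay 22 bp from its start and 23 bp from that of msl-2, which encodes the male-limiting protein of X dosage compensation. At ND-MWFE it lay 158 bp away but 63 bp from TppII, a tripeptidyl peptidase gene. At ND-B17.2 it lay 24 bp away and 96 bp from Arpc5, a subunit of the actin-nucleating Arp2/3 complex. The peak was thus shared evenly at the first, nearer the neighbour at the second and nearer the subunit gene at the third.

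At ND-51 the summit lay 146 bp from its start and 86 bp from CG13994. At ND-B15 it lay 135 bp away and 93 bp from CG10151. At ND-42 it lay 231 bp away and 2 bp from the start of Cchl, which encodes the enzyme that attaches heme to cytochrome c, another mitochondrial gene. In all 3 the neighbour was the nearer. The summit was nearer the subunit gene at ND-24 (82 bp, against 124 bp for the meiotic gene corolla) and at ND-B16.6 (4 bp, against 224 bp for kdn, which encodes citrate synthase). At ND-B8 it lay 151 bp away and 22 bp from Secp43, and at ND-MNLL it was 19 bp from the starts of both ND-MNLL and CG45089 and 214 bp from p115, a Golgi tether gene. Without these shared peaks, 12 bound subunit genes remained whose peak marked no other protein-coding gene, with a median signal value of 730, against 778 for the shared ones.

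Motif content was read in the promoter from 250 bases before to 50 bases after the most upstream start. The exact core of Motif 1 was present in 7 of the 22 bound subunit genes (31.8%) and in none of the 12 unbound ones, beside 6.05% of all protein-coding promoters and 18.3% of bound ones. All 7 subunit genes with the core were bound, as were 94.3% of all genes with it, and of the 27 subunit genes without the core 15 were bound (55.6%), beside 27.1% of all genes without it. The 7 were ND-PDSW (where the core lies inside msl-2), ND-MWFE, ND-ACP, ND-18, ND-B17, ND-13A and ND-B14. Their median signal value was 1066 (490 to 1919), against 530 (267 to 1686) for the 15 bound genes without the core, and the ranges overlap widely. The 15 include ND-SGDH and ND-39, whose cores lie by a downstream start and outside this promoter window. Read at any start site of the gene, 9 subunit genes held a core. ND-B17.2, ND-51 and ND-20 were strong without an exact core. All 7 genes with a core in this window were also among the strongest peaks of every replicate.

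Counted around the strongest summit instead, a core lay within 100 bp at 8 of the 22 bound subunit genes (36.4%), beside 667 of all 4598 thresholded peaks. The latter set was not limited to peaks near a start site or to the strongest peak of a gene, so the shares are not like for like. The 8 subunit genes were the 7 whose sites are printed above and ND-B14. At ND-B17 the core was centred 10 bp from the summit, at ND-SGDH 19 bp, at ND-39 27 bp, at ND-13A 38 bp, at ND-B14 39 bp, at ND-18 48 bp, at ND-PDSW 52 bp and at ND-ACP 85 bp. ND-MWFE was the exception: its core lay at the subunit gene's start while its strongest summit lay towards TppII. Its window held 2 thresholded summits, and only the strongest was measured against the core. The nearest entries of replicates 1, 2 and 3 lay 124, 18 and 49 bp from its start. Allowing 1 mismatch raised the promoter count to 9 of 22 bound subunit genes (40.9%), with ND-B17.2 and ND-B16.6 added, beside 40.8% of all bound genes. It left the unbound subunit genes at 0, beside 4.10% of all unbound genes and 15.5% of all genes. With the mismatch allowed, bound subunit genes therefore held the core about as often as other bound genes.

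The other elements were distributed differently. The DRE, TATCGATA, was present in 2 of the 22 bound subunit genes, ND-B15 and ND-MNLL, and in 4 of the 12 unbound ones, ND-15, ND-19, ND-23 and ND-B14.5A, beside 9.36% of all promoters. Among all genes it was the bound ones that held it more often, 17.8% against 5.52% of unbound ones. The E-box CAGCTG was present in 8 of 22 bound and 4 of 12 unbound subunit genes, beside 17.7% of all promoters. Among all genes, 23.0% of bound and 15.3% of unbound ones held it. The TATA letters TATAAA were present in 14 of 22 bound and 10 of 12 unbound subunit genes, beside 45.8% of all promoters. Among all genes, 44.7% of bound and 46.2% of unbound ones held them. The start regions of the subunit genes were poor in GC, with a median of 35.3% for the bound and 31.3% for the unbound ones, against 41.3% for all genes, and the part of base composition in these counts was not tested. A match is a run of letters, and says nothing of the protein that may occupy it.

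The share of complex I subunit genes bound lay close to that of the other respiratory complexes. Over replicates it averaged 62.7% ± 6.79 in complex I, against 69.4% ± 3.12 for the 37 nuclear genes listed for complexes II to V (SD, n = 3 each). The gap was about the spread between replicates, and its direction changed between them. In replicate 1 complex I was the higher, 70.6% against 67.6%. In replicate 2 it was the lower, 58.8% against 73.0%, as in replicate 3, 58.8% against 67.6%. The list for complexes II to V also holds both genes of cytochrome c, the mobile carrier between complexes III and IV. Of these, Cyt-c-p was bound with a signal value of 2398 and Cyt-c-d was not. In the thresholded list 22 of 34 were bound in complex I (64.7%), against 26 of 37 in complexes II to V (70.3%). The median signal value of bound genes was 730 in complex I, against 899 in the others. None of the 6 paralogs of complex I was bound, against 1 of 19 in complexes II to V, which was COX7AL with a signal value of 339. Mitochondrial ribosomal protein genes stood at 40 of 73 (54.8%; 53.4% ± 11.0 over replicates, SD, n = 3).

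Complex I is put together by assembly factors, most of which do not remain in the finished enzyme. Of the 7 genes listed, 6 were bound (85.7%). CG5569, the counterpart of human NDUFAF3, had a signal value of 1537 and ranked 583, 292 and 678 in replicates 1, 2 and 3. The others were weaker: CIA30 had 499, sicily 359, CG17726 302, CG8067 302 and ECSIT 286. Of the 7, 2 were bound in the thresholded list and all 3 replicates, CG5569 and CG8067, beside 2905 of all 13945 protein-coding genes. Nubpl, which delivers iron-sulfur clusters to complex I, was unbound although it ranked 4593 in replicate 1 and 3926 in replicate 3, with no entry in replicate 2. In the strongest peaks of the replicates, 7, 4 and 4 of these genes were marked, so their share moved more between replicates than that of the subunits.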

How the data were processed

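ChIP-seq peak lists of 3 biological replicates of 1 group were used, with coordinates on dm6. Per the deposited notes, the authors called a relaxed list of 30000 entries from each replicate and from the 3 alignments pooled, each with the same control, and derived a thresholded list by irreproducible discovery rate. The deposited signal value is a score of the authors' peak caller, read within 1 list. The deposited −log10 q-value stops at a ceiling and was not used for calls. The deposited summit offset gives bp from the interval start. The sources used here name no aligner, caller, threshold or version. Chromatin was sonicated to 200 to 800 bp, per the labels.

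Start sites came from the Ensembl release 115 annotation and sequence from NCBI RefSeq Release 6; peak ends lay inside every arm, and 99.5% of 30748 coding transcripts began with ATG. Promoter sequence was read by coordinates, positions are counted from 1, and an opposite start was sought within 1000 bp upstream. Paralog proteins were translated from annotated coding sequence and aligned globally. The members, roles and pathway lists were chosen with earlier results of these data known. In the list of complexes II to V, sunn and sunz, caught by the name pattern, were left out. Values were given in full for the 8 strongest bound subunit genes, the 4 with the widest ratio of replicate ranks, the 2 weakest, all unbound subunits and paralogs, and genes sharing a named peak. No significance test was run, and a signal value has no replicate error of its own. The calling of genes was tested on simulated data. Biopython 1.88 made the alignments, figures were drawn with matplotlib 3.10.9, and tables were handled in Python 3.11.15 with pandas 2.3.3 and numpy 2.4.6.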

Additional observations from a re-analysis of the deposited data

How the results depend on the processing

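The count of 22 bound subunit genes was 18 with summits within 100 bp, 22 with 500 bp or with the peak interval over the start, and 21 at the most upstream start alone. Peaks above the median signal value gave 12 of 34 (35.3%, all genes 19.5%). Keeping thresholded peaks with a summit within 100 bp among the strongest peaks of both remaining replicates, with 1 left out, gave 10 to 18: without replicate 1 it was 10 (29.4%, all genes 17.4%), without replicate 2 it was 18 (52.9%, all genes 24.2%) and without replicate 3 it was 13 (38.2%, all genes 19.8%). The subunit share was above that of all genes in each of these settings. The share of all genes bound was 23.3% within 100 bp, 34.5% within 500 bp, 29.5% at the most upstream start alone, 28.3% in replicate 2 and 29.3% in replicate 3. Paralogs stayed at 0 in every setting except a literal reading of names ending in L, which places ND-MNLL among them and gives 1 of 5, with 21 of 35 subunits. Subunit genes with a Motif 1 core numbered 7 to 9. The 10 bound genes that share a peak were 3 within 100 bp and 15 within 500 bp, 5 above the median signal value, 11 in replicate 1, 5 in replicate 2 and 10 in replicate 3 alone, and 4 to 9 with 1 replicate left out. The median signal value of 730 was 1099 among peaks above the median of the list, and was not taken in single replicates, whose scores differ in scale. The cause of these changes was not tested, beyond the fewer peaks a stricter setting keeps. Read depth is unknown, so a missing entry does not show absence of binding. No paired analysis between conditions was possible because there is 1 group.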
